A study of Mus musculus with 5 samples.

Results

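NEUROD2 binding was examined at the loci of 9 genes of the synaptic vesicle and its release machinery, namely Snap25, Stx1a, Vamp2, Syt1, Syt4, Syn1, Syn2, Slc17a6 and Slc17a7. NEUROD2 is a neuronal basic helix-loop-helix transcription factor that binds E-box DNA. The chromatin came from the cerebral cortex of E14.5 embryos of BALB/c mice, pooled from several litters for each experiment, with no genetic or drug treatment. It was precipitated with 3 antibodies against NEUROD2 (ab1 raised in mouse, ab2 and ab3 in rabbit), and 2 GFP antibodies served as controls for the peak caller. Each antibody has 1 library of the same condition, so the data hold no contrast between groups and the antibodies are the only repeat measurement. Peaks whose midpoint lay in the span of the longest transcript of a gene (GENCODE M21, mm10) or within 50 kb of either end were taken, and overlapping peaks were merged into regions. This gave 74 regions from 129 peaks, out of 53833 such regions and 94616 peaks in the genome. A peak score is 10 times the −log10 of the p-value that the peak caller gave, and it is not scaled between libraries.

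At the nerve terminal, transmitter is packed into vesicles that fuse with the membrane when calcium enters. SNAP-25 and syntaxin 1A on the plasma membrane and VAMP2 on the vesicle form the SNARE complex that drives fusion, and synaptotagmin 1 is the calcium sensor that triggers it. Synapsins tether vesicles in a reserve pool. The transporters VGLUT2 (Slc17a6) and VGLUT1 (Slc17a7) fill vesicles with glutamate and thereby mark excitatory neurons. At E14.5 most cortical projection neurons are still being born or are migrating, and synapse formation in the cortex comes largely later.

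Of the 9 genes, 6 had at least 1 region with peaks of all 3 antibodies in the locus. The strongest region of each of these loci is shown by the stretch around the extended E-box closest to its midpoint, since factors of the NEUROD family bind such E-boxes. The extended E-box has the core CAGCTG or the core CAGATG (which reads CATCTG on the other strand) or the core CATATG, followed by G or T, and it was searched on both strands with each core counted once. Stretches are from the plus strand of the mm10 reference, with the letters that matched on either strand in capitals. The reference is not of the BALB/c strain, so strain variants in these letters would not be seen.
Snap25, region at +40.3 kb (chr2:136753708-136753808): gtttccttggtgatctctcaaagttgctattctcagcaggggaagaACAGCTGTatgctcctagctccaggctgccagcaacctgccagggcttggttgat
Syt1, region at +73.9 kb (chr10:108936975-108937075): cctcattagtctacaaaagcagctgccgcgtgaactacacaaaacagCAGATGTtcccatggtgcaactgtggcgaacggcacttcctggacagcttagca
Syn2, region at −11.8 kb (chr6:115123445-115123545): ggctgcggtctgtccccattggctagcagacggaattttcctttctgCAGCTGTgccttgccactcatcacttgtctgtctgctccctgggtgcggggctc
Slc17a6, region at +5.4 kb (chr7:51627300-51627400): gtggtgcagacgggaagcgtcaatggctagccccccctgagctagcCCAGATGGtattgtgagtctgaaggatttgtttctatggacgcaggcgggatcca
Slc17a7, region at −1.5 kb (chr7:45162259-45162359): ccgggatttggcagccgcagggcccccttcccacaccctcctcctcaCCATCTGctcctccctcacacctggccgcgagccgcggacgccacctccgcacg
Stx1a, region at −36.7 kb (chr5:134987192-134987220): caccccaccttCCAGATGGtgacagacga

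Distances here and below run from the start site of the named gene to the midpoint of the region, and positive values lie in the direction of transcription. The E-boxes shown for Snap25, Syt1, Slc17a6 and Slc17a7 lay at −42, −41, −74 and −93 bp from the region midpoint, counted along the plus strand. Those of Syn2 and Stx1a lay at 347 and 406 bp. The Stx1a stretch is kept to 29 bases because it falls in an untranslated exon of the neighbouring gene Cldn3, which encodes a tight-junction protein. Snap25 and Syn2 showed the CAGCTG core, and the other 4 showed CAGATG.

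The loci differed widely in how many regions they held. Snap25 and Syt1 each had 14, Syn2 had 11, Slc17a7 had 10, Slc17a6 and Stx1a each had 8, Vamp2 had 5, Syn1 had 3 and Syt4 had 1. Locus size differs as well, from 103895 bp for Vamp2 to 613331 bp for Syt1. All 9 loci held at least 1 region, as did those of 78.7% of protein-coding genes. Per 100 kb of locus, Slc17a7 was the densest with 8.91 regions, and 97.4% of the 21938 protein-coding genes treated in the same way had a lower density. Snap25 followed with 8.29 regions per 100 kb and 96.3% of genes below it, then Stx1a with 6.27 (90.7%) and Slc17a6 with 5.37 (85.8%). Syt1, which ties with Snap25 in number, came to 2.28 per 100 kb, and 53.5% of genes lay below it. Syn1 (1.87) and Syt4 (0.912) were under the median gene. The median over the 9 loci was 4.81 regions per 100 kb against 1.96 over all protein-coding genes.

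Counting regions with peaks of at least 2 antibodies, 8 of the 9 loci held at least 1, against 67.6% of all protein-coding genes. The exception was Syn1, whose 3 regions were each called with a single antibody. Slc17a7 again led with 8 such regions, 7.13 per 100 kb, above 98.7% of genes. Snap25 and Syt1 also had 8 each, Syn2 had 7, Slc17a6 had 5, Stx1a had 3, Vamp2 had 2 and Syt4 had 1. The count of 42 such regions rests on ab1 and ab2 together, and it was 12 without ab1 or without ab2 and 42 without ab3. Without ab1 or ab2 such a region must include ab3, which had the fewest peaks in the genome (7470). At least 1 region with all 3 antibodies was present at 6 loci (26.7% of all protein-coding genes) and at least 2 at 5 loci (9.75%). With a peak score of at least 100 for each antibody these numbers were 3 loci (Snap25, Stx1a and Slc17a7, against 14.1% of all protein-coding genes) and 0 (3.69%). The median locus of the 9 genes was 149114 bp against 117160 bp over all protein-coding genes, and the part of locus size in these counts was not tested. Without a score limit, Snap25 had 3 regions with all 3 antibodies, while Syt1, Syn2, Slc17a6 and Slc17a7 had 2 each and Stx1a had 1. None was found at Syt4, Vamp2 or Syn1.

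**Figure D1:**
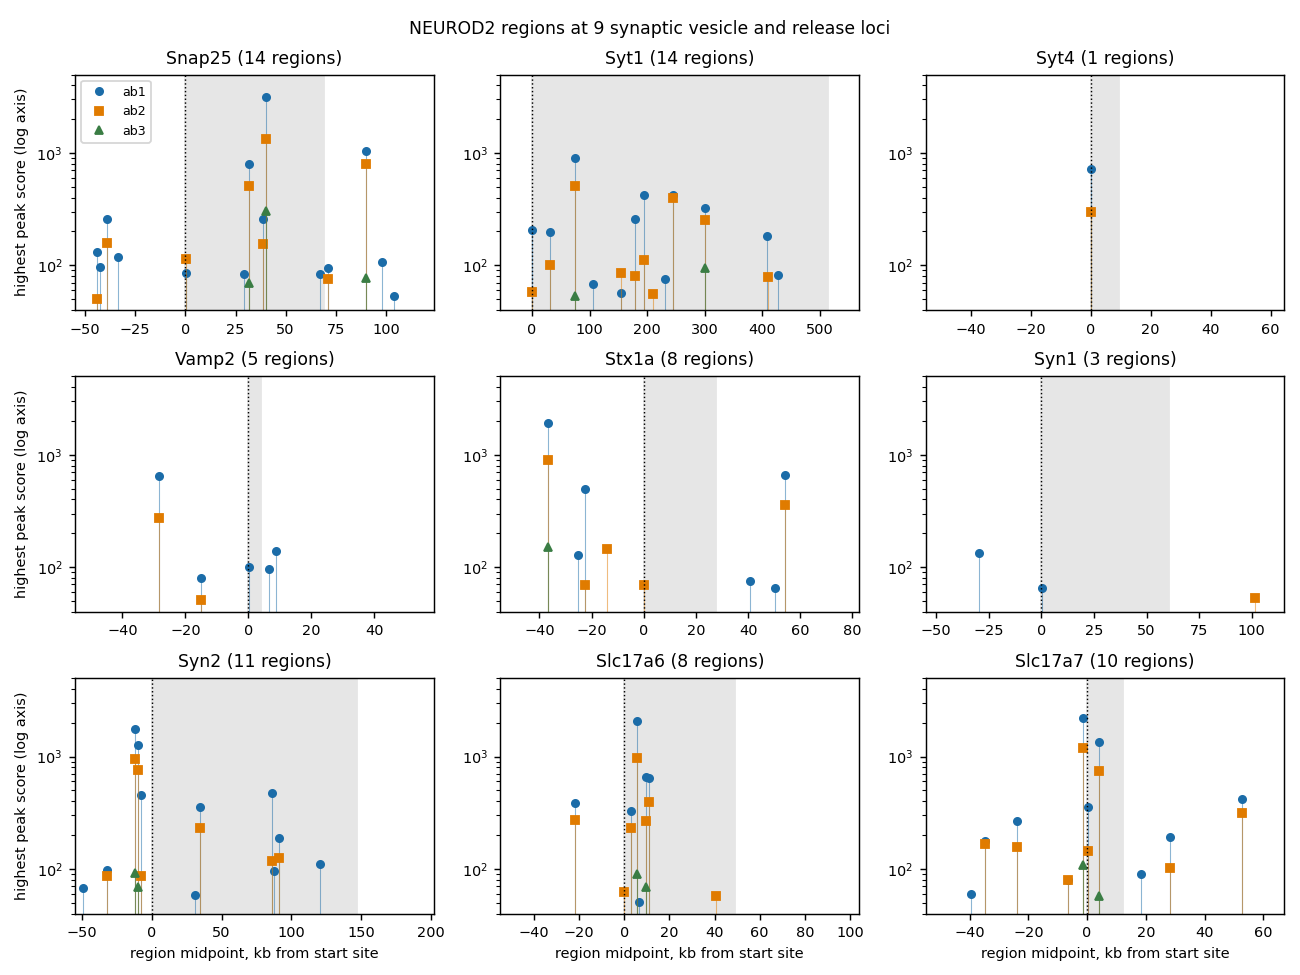
Each panel is a locus, with the region midpoint in kb from the gene's start site on the x axis (shading marks the gene span) and the highest peak score of each antibody on a log y axis. Snap25, Stx1a, Syn2, Slc17a6 and Slc17a7 carry regions scored above 1000 with ab1, whereas no region at Syn1 exceeded 132.6.

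The antibodies contributed 67 peaks (ab1), 50 peaks (ab2) and 12 peaks (ab3) to the 9 loci, 43.0 ± 28.2 per antibody (SD, n = 3). These were 0.129%, 0.142% and 0.161% of the peaks of each antibody on the assembled chromosomes. Of the 74 regions, 12 had all 3 antibodies, which is 16.2% (95% Wilson interval 9.53 to 26.2%) against 13.3% of all regions in the genome. A further 30 had 2 antibodies, so that 42 (56.8%, 45.4 to 67.4%) had at least 2, against 59.9% in the genome, and 32 had a single one. Of the regions with a single antibody, 25 came from ab1 and 7 from ab2, and ab3 gave none of its own. In the 42 regions that ab1 and ab2 shared, ab1 had the higher score in 40, with a median ratio of 1.75 (0.665 to 7.14). Over these regions the log10 scores of both antibodies gave Pearson's r of 0.882 and Spearman's rho of 0.845. These coefficients are across regions of the same tissue and describe the agreement of these antibodies only. All intervals cover counting error alone. The tissue is whole cortex, so fewer bound cells and less binding per cell cannot be told apart.

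Among the SNARE genes, Snap25 carried the highest score of the 9 loci. Its region at +40.3 kb, in the first intron (chr2:136753273-136754326), scored 3140 with ab1, 1330 with ab2 and 304.6 with ab3. It was the highest of the 74 regions with each antibody. Its ab1 score lies among the 730 ab1 peaks at 3100 or more, where the order is not resolved, while 3.05% of the ab2 regions and 8.45% of the ab3 regions in the genome scored higher. In the same intron the region at +31.7 kb had scores of 794.8, 507.4 and 68.9 with ab1, ab2 and ab3. The third region with all 3 antibodies lay beyond the end of the gene at +89.9 kb, with 1049, 794.2 and 77.0. Both intronic regions lay closer to the start of a processed pseudogene, Gm14053, than to that of Snap25, at 9185 bp and 522 bp. At the Snap25 start itself a broad region of 1461 bp was scored 85.0 with ab1 and 114.7 with ab2, without a peak of ab3. Here ab2 exceeded ab1, the reverse of the usual order. A group of 4 weaker regions lay upstream between −44.0 and −33.6 kb, where ab1 gave 96.9 to 258.0.

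Stx1a presented a different picture, since its strong regions lay at the starts of other genes. The region at −36.7 kb (chr5:134985818-134987782) had scores of 1909, 897.4 and 149.4 with ab1, ab2 and ab3, and its midpoint was 586 bp from the start of Cldn3. The region at +54.3 kb, with 666.2 (ab1) and 355.5 (ab2), was 451 bp from the start of Vps37d, a subunit of an endosomal sorting complex. The third by score, at −22.5 kb with 496.6 and 69.5, was 361 bp from the start of the antisense gene Wbscr25. At the start of Stx1a itself only ab2 gave a peak, with a score of 69.1.

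Vamp2 lies among closely spaced genes and showed the same arrangement on a smaller scale. Its highest region, at −28.5 kb, had scores of 651.4 (ab1) and 275.6 (ab2) and was 318 bp from the start of Borcs6. The region at the Vamp2 start was called with ab1 alone, with a score of 100.5. The other 3 regions stayed between 79.3 and 138.5 with ab1, at 163 bp from the small nucleolar RNA gene Snord118 and at 166 and 2136 bp from the start of the clock gene Per1. None of the 5 regions had a peak of ab3.

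For the synaptotagmins, binding at Syt1 was spread along a gene of 513331 bp, and 13 of its 14 regions lay in introns. The highest was in the first intron at +73.9 kb (chr10:108936673-108937458), with 905.1, 508.1 and 52.8 for ab1, ab2 and ab3. This region lay 19422 bp from the start of Gm47477, closer than to that of Syt1. The next by ab1 score, at +195.4 and +245.2 kb, lay 37248 and 12537 bp from the start of Gm47472. The other region with all 3 antibodies, in the third intron at +300.3 kb, had 321.7, 252.9 and 94.8. Its ab1 score was the lowest of the 12 regions with all 3 antibodies, while its ab3 score was among the highest 4. It lay 10490 bp from the start of the protein-coding gene Gm5136. The start site of Syt1 was covered by a region of 1650 bp with 205.7 (ab1) and 57.5 (ab2). Syt4, a synaptotagmin of neuronal and secretory vesicles, had its only region at the start site, with the midpoint in the first exon in the 5' untranslated part (chr18:31446664-31447873). It scored 727.3 with ab1 and 299.9 with ab2, the highest values with these antibodies at the start site of any of the 9 genes. The nearest other peak lay 120833 bp from the gene, outside the locus.

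The synapsin genes differed from each other. Syn2 had a compact group of 3 regions upstream of the gene, picked out after the values had been seen, from chr6:115122015-115124280 to chr6:115126134-115127500, separated by gaps of 229 and 262 bp. The region at −11.8 kb scored 1776, 957.8 and 91.1 with ab1, ab2 and ab3, and the one at −9.7 kb scored 1274, 753.7 and 68.5. The third, at −8.1 kb, had 454.9 with ab1 and 86.7 with ab2. All lay slightly closer to the start of the noncoding gene Gm17733, at 11687, 9644 and 8018 bp. A further group lay in the first intron between +86.4 and +90.8 kb, where the highest scores were 474.6 (ab1) and 124.5 (ab2). Yet Syn2 was the only member without a region at its start site. Syn1, on the X chromosome, had 3 isolated regions of a single antibody each. They scored 65.2 with ab1 at its own start (+0.2 kb), 132.6 with ab1 at −29.6 kb, which is 16 bp from the start of Elk1, and 52.7 with ab2 at +101.7 kb. The last of these lay 4511 bp from the start of the microRNA gene Gm24824.

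The glutamate transporter genes both had strong regions close to the gene start. At Slc17a7, which encodes VGLUT1, the region at −1.5 kb (chr7:45161805-45162999) scored 2212, 1182 and 108.4 with ab1, ab2 and ab3. The region in the first intron at +3.9 kb scored 1342, 751.7 and 57.5 and was the widest of the 74, with 2454 bp. Between them the start site itself carried a region with 359.1 (ab1) and 143.5 (ab2). The third by score at this locus, at +52.6 kb with 415.2 (ab1) and 316.3 (ab2), lay 789 bp from the start of Tead2. At Slc17a6, which encodes VGLUT2, 6 regions were packed into 12081 bp from the start site into the third intron. The highest, at +5.4 kb (chr7:51626794-51628054), scored 2092, 961.8 and 89.9, and the region at +9.4 kb scored 655.2, 267.1 and 68.8. A region at +11.1 kb reached 640.9 with ab1 and 396.2 with ab2 but had no peak of ab3. From the start of the annotated gene Gm45072 these regions were 4301, 303 and 1406 bp away. The start of Slc17a6 was called with ab2 alone, at 62.7.

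A region of any antibody lay within 1 kb of the start site of 8 of the 9 genes, against 37.2% of all protein-coding genes. With at least 2 antibodies the number was 4 (Snap25, Syt1, Syt4 and Slc17a7), against 20.8%. Without ab1 or without ab2 it was 0, where such a region needs a peak of ab3. The share of all protein-coding genes at that setting is not given here. With a peak score of at least 100, 5 members had a start-site region of any antibody, against 25% of protein-coding genes. No member had a start-site region with all 3 antibodies, which 1.61% of protein-coding genes had. The 6 scores of ab1 at member start sites ran from 65.2 to 727.3 with a median of 153.1, close to the median of 150.2 over all ab1 regions in the genome. The 12 regions with all 3 antibodies ran from 321.7 to 3140 with a median of 1308, against a median of 1169 for this class in the genome. Only the regions at Syt4 and Slc17a7 overlapped that range. A peak exists only above the score threshold, so scores and number of antibodies are linked, and these ranges are a description and were not tested. The 12 regions lay at 1547 to 300332 bp from the start site of their member, and 7 of them lay in its gene span. Of the 12, 3 lay within 1 kb of the start of another annotated gene, at Gm14053, Cldn3 and Gm45072, and 7.21% of the regions with all 3 antibodies in the genome lay within 1 kb of any start. Of all 74 regions, 23 (31.1%, 21.7 to 42.3%) lay that close to any start, against 16.7% in the genome.

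**Figure D2:**
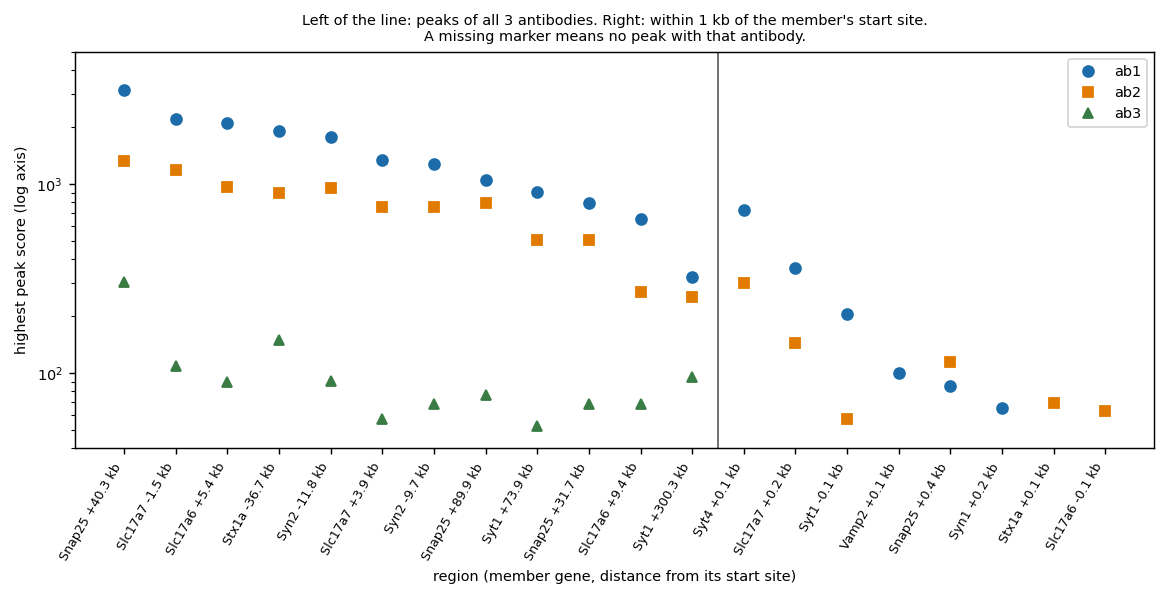
The highest peak score of each antibody (log y axis) is plotted for the 12 regions with peaks of all 3 antibodies, left of the line, and for the 8 regions within 1 kb of a member's start site, right of it, and a missing marker means no peak. Scores of ab1 exceed those of ab2 in all 12 regions on the left, and ab3 stays between 52.8 and 304.6.

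Which gene a region belongs to cannot be read from these files. By the midpoint of the region, 37 of the 74 lay in the span of the member, 32 of them in introns and 15 in first introns, while 24 lay upstream and 13 downstream. The member had the closest start site of any annotated gene for 12 regions, and for 37 when protein-coding genes alone were considered. Counted separately and overlapping with the latter, 15 regions were within 1 kb of the start of another gene. A score that sums, over the regions of at least 2 antibodies closest to a gene's start, a weight that decays with distance (decay length 5000 bp) was 2.16 for Slc17a7, rank 32 of 21938 protein-coding genes. The value was 0.975 for Syt1, 0.973 for Syt4, 0.916 for Snap25 and 0.568 for Slc17a6. Without ab1 or without ab2, where a region of at least 2 antibodies needs a peak of ab3, it was 1.22 or 1.19 for Slc17a7 and 0 for the other 4. With a decay length of 1000 or 50000 bp it was 1.09 or 2.89 for Slc17a7 and 0.0525 or 1.59 for Slc17a6. With all antibodies and 5000 bp it was 0 for Vamp2, Stx1a, Syn1 and Syn2, and the median over all protein-coding genes was also 0. With each antibody's own peaks Slc17a7 reached 2.16, 2.18 and 1.25 (1.87 ± 0.533, SD, n = 3 antibodies). It was the only member above 0 with ab3. With ab1 and ab2 the scores were 0.916 and 0.925 for Snap25, 0.971 and 0.975 for Syt1, and 0.959 and 0.985 for Syt4. Slc17a6 had 0.612 with ab1 and 1.55 with ab2. Vamp2 (0.983) and Syn1 (0.955) were above 0 with ab1 only, Stx1a (0.981) with ab2 only, and Syn2 with no antibody. With start sites of protein-coding genes alone, the score was 1.17 for Slc17a6 (rank 760, from 4443) and 0.439 for Syn2, and Slc17a7 had 2.16 with rank 48.

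The extended E-box was found in 43 of the 74 regions when their middle 200 bp were searched, which is 58.1% (95% Wilson interval 46.7 to 68.7%), against 58.6% of all regions in the genome. Windows of 200 bp placed 1000 bp outside either end carried it in 31.1% and 21.6% of cases. The paper found this motif in the merged peaks of these same libraries. A higher share inside the regions than outside is therefore no independent evidence of binding. The share was 46.9% (30.9 to 63.6%) in regions of a single antibody, 18 of 30 (42.3 to 75.4%) in regions of 2 and 83.3% (55.2 to 95.3%) in the 12 regions of all 3. The intervals overlap, and the genome-wide shares in these classes were 57.1%, 58.6% and 63.4%. Within 1 kb of any start site 8 of 23 regions carried the motif, or 34.8% (18.8 to 55.1%), and beyond 1 kb 35 of 51 did, or 68.6% (54.97 to 79.7%). In the genome these shares were 24.1% and 65.5%, with the lower share near starts in both sets. The 43 regions held 54 separate sites in their central windows, 35 of them with the CAGATG core, 14 with CAGCTG and 5 with CATATG.

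By locus, the motif counts rest on few regions and were not tested. At Snap25 12 of 14 regions carried the motif centrally and at Syt1 11 of 14 did, followed by Slc17a6 with 6 of 8, Syn2 with 6 of 11 and Slc17a7 with 5 of 10. Stx1a had it in 2 of 8, Vamp2 in 1 of 5, and neither Syn1 (3 regions) nor Syt4 (1 region) had any. Regions within 1 kb of any start site numbered 6 of 8 at Stx1a, 4 of 5 at Vamp2, 2 of 3 at Syn1, the 1 at Syt4, 4 of 10 at Slc17a7, 2 of 8 at Slc17a6, 3 of 14 at Snap25, 1 of 14 at Syt1 and 0 of 11 at Syn2. Their part in the motif counts was not tested. The 2 regions of all 3 antibodies that lacked it centrally were those of Stx1a at −36.7 kb and of Syn2 at −11.8 kb, whose E-boxes shown above lie farther from the midpoint. The central windows at member start sites had a median GC content of 64.25% (40 to 73.5%, 8 regions), against 50.5% (42.5 to 70%) in the 12 regions with all 3 antibodies, and the ranges overlapped. The part of base composition in the difference in motif share was not tested. RefSeq promoters (GRCm38.p6, 300 bases around the start) were found for 6 of the members, with 9 promoters in all. Of these 9, 3 held the motif (33.3%; 1 each of Syt1, Stx1a and Slc17a6), against 26.3% of 32851 promoters.

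**Figure D3:**
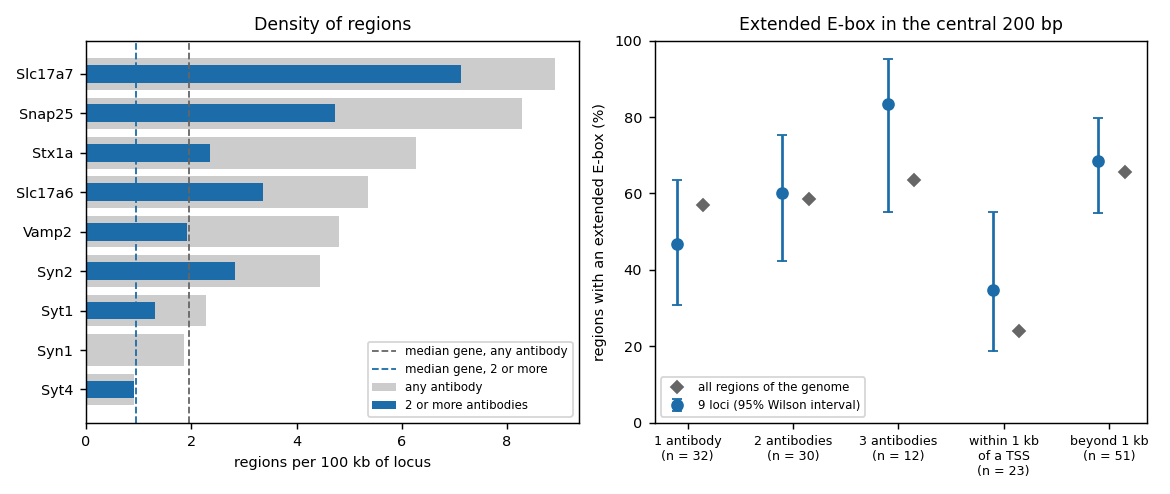
The left panel gives regions per 100 kb of locus for each member, with any antibody (grey) and with at least 2 (blue), and dashed lines at the medians over protein-coding genes. The right panel gives the percentage of regions with an extended E-box in the 9 loci with 95% Wilson intervals, which include the genome-wide value (grey diamonds) in all 5 classes.

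Other genes of the vesicle cycle were examined in the same way, as a list of 65. At least 1 region of 2 or more antibodies was present at 61 of them (93.8%, against 67.6% of protein-coding genes), and a region of all 3 antibodies at 28 (43.1%, against 26.7%). The first number fell to 28 without ab1 or without ab2, where a region of 2 antibodies needs a peak of ab3. The share of all protein-coding genes at that setting is not given here. The loci of this list had a median size of 158933 bp against 117160 bp over all protein-coding genes and this was not tested either. A start-site region of any antibody was found at 39 (60%, against 37.2%), of at least 2 antibodies at 23 (35.4%, against 20.8%) and of all 3 at 2 (3.08%, against 1.61%), Cadps and Syt3, which were named after their values had been seen. The most regions of 2 or more antibodies were found at Cadps (22), a priming factor of dense-core vesicles, at Syn3 (14), the third synapsin, at Rimbp2 (12), an active-zone scaffold, and at Sh3gl2 (11), which encodes endophilin A1. The highest scores weighted by distance were those of Cplx2 (1.63), a complexin that clamps and promotes fusion, Syp (1.46), the vesicle protein synaptophysin, Napa (1.32), which helps take SNARE complexes apart, and Cadps (1.29). All 4 were below Slc17a7. With start sites of protein-coding genes alone the order changed to Synpr (1.72, from 0), Cplx2 (1.65), Syt13 (1.63, from 1.22) and Syp (1.46), with Synpr and Syt13 named after their values had been seen. No region of 2 or more antibodies was found at Cplx1, Stx3, Syt11 and Vamp4, which were also named after their values had been seen.

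The gene of this list most like each member was taken from the summed peak score per 100 kb with the 3 antibodies, as the smallest distance between log10 values among 65 genes. Rab3a, a small GTPase of the vesicle surface, came out for both Snap25 (distance 0.0924) and Slc17a7 (0.268). Snap25 had sums of 3762, 1885 and 266.6 per 100 kb with ab1, ab2 and ab3, and Rab3a had 4438, 2155 and 267.2. Rimbp2 was closest to Stx1a (0.0868) and to Slc17a6 (0.196), Cadps to Syn2 (0.108), Rims2 to Syt1 (0.160), Syngr3 to Syt4 (0.0865), Unc13a to Vamp2 (0.136) and Slc17a8 to Syn1 (0.381). With 3 antibodies this likeness describes the level of binding and little else.

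The 50 kb limit separates few peaks by a small margin. The peak farthest from its gene that was still inside was at Syn2, 49159 bp from the gene, with a score of 68.2 (ab1), and the closest one outside was at Vamp2, 52596 bp away, with a score of 50.01 (ab2).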

How the data were processed

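The data are ChIP-Seq peak lists of 3 NEUROD2 antibodies, 1 library each. According to the methods and the labels, the authors aligned single-end reads to mm10 with Bowtie, discarded PCR duplicates and ambiguous alignments, and ran MACS on each antibody. The mouse GFP library was the control for ab1, and the rabbit one was shared by ab2 and ab3. The deposited score is 10 times −log10 of the MACS p-value. Scores were used as deposited. Depth cannot be read from peak lists, and the sequencing counts that the paper gives for each antibody in its supplement were not used. Peaks outside chromosomes 1 to 19, X and Y were left out.

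Peaks sharing at least 1 bp were merged, placed on GENCODE M21 (GRCm38) by midpoint, and searched for the extended E-box. No test was made, because the series has a single condition. Wilson intervals are at 95%. The members and lists were chosen with earlier results of these data known. Named genes were the members and, of the wider list, the 4 highest by regions and the 4 highest by weighted score. Added to these were the gene most similar to each member and the gene with the start closest to each of a member's 3 highest regions. Genes outside this rule were named after their values had been seen: Cplx1, Stx3, Synpr, Syt3, Syt11, Syt13 and Vamp4 of the wider list, and Snord118 and Gm5136. All 65 genes of that list were found in the annotation. Alternatives are given in the closing section. Scripts used pysam 0.24.0, pandas 2.3.3 and numpy 2.4.6 under Python 3.11.15, with intervals from scipy 1.17.1 and plots from matplotlib 3.10.9. Merging and motif search were tested on simulated data first.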

Additional observations from a re-analysis of the deposited data

How the results depend on the processing

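The number of regions was 46 with a peak score of at least 100, 42 with at least 2 antibodies, 47 with 10 kb on either side of the gene and 38 in the gene span alone, counted by peak midpoint (37 by region midpoint). The regions with all 3 antibodies fell from 12 to 3 and to 7 under the first and last of these. Members with a start-site region numbered 5 at a score of at least 100 and 4 with at least 2 antibodies. The E-box share was 66.7% with at least 2 antibodies, 68.1% with 10 kb, 71.1% in the gene span, 73.0% for CANNTG and 81.1% when the whole region was searched. Leaving out each antibody in turn gave 50 to 74 regions, 6 to 8 members with a region of 2 or more antibodies, 6 to 8 with a start-site region, an E-box share of 58.1 to 68.0% and 28 to 61 genes of the wider list. The median weighted score of the members, 0.568, was 0 to 0.568 when each antibody was left out, 0 with regions of all 3 antibodies, 0.919 with start sites of protein-coding genes alone, 0.0525 with a decay length of 1000 bp and 0.991 with 50000 bp. The alternatives for the weighted score with protein-coding start sites or an antibody left out, for start sites with 2 antibodies and for the wider list were chosen after seeing the data. With an antibody left out, regions of all 3 cannot be counted, and without ab1 or ab2 every region of 2 antibodies needs a peak of ab3. No paired analysis was possible because the GFP libraries entered only as controls for peak calling and no test between groups was made. Since depth and signal between peaks are not in the lists, a missing peak says only that none passed the caller's threshold, and the small number of peaks with ab3 limits every count that needs all 3 antibodies.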
